A study of Homo sapiens with 12 samples.

Results

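Replication-dependent histone genes were followed across 4 treatments of KP4, a human pancreatic cancer cell line. They were taken as the rows of the deposited table whose symbol starts with HIST1H, HIST2H, HIST3H or HIST4H and whose mean over the 12 libraries was at least 10 normalized counts. Of 36601 genes in the table, 71 had such a symbol and 61 passed the minimum. The 61 genes encode the linker histone H1 (4 genes) and the core histones H2A (16), H2B (17), H3 (11) and H4 (13). Of these, 48 lie in the large HIST1 cluster on chromosome 6 and 12 in HIST2 and HIST3 on chromosome 1 (10 and 2 genes), while HIST4H4 stands alone on chromosome 12. Just above the minimum were HIST2H4B with a mean of 10.5 normalized counts and HIST2H2AA4 with 11.3, and just below it HIST1H1T (8.77), a linker histone of the testis, and HIST2H3C (8.58).

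Unmodified KP4 cells, labelled WT, received for 24 h the vehicle DMSO, 10 mM metformin (Met), 5 nM FK866 (FK), or 10 mM metformin with 5 nM FK866 (Met+FK), with 3 libraries for each treatment. Metformin acts on mitochondrial respiration through complex I, and FK866 inhibits NAMPT, an enzyme of NAD salvage. All groups share 1 cell line, 1 growth medium with serum and 1 time point, and nothing in the labels says that the replicates were separate cultures, so p-values measure the spread between these libraries, which may be technical. Total RNA was depleted of ribosomal RNA rather than selected for poly(A), so transcripts without a poly(A) tail could be read.

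Replication-dependent histone genes are transcribed mostly in S phase, when new DNA needs new nucleosomes. Their mRNAs have no introns and end in a conserved stem-loop in place of a poly(A) tail, which the stem-loop binding protein SLBP recognises and behind which the U7 small nuclear ribonucleoprotein directs the cut. When DNA synthesis stops, these mRNAs are degraded quickly, so their level is a common readout of how many cells replicate DNA. In RNA from whole cultures, fewer cells in S phase and less histone mRNA per such cell cannot be told apart.

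Most of the 61 genes share the stem-loop. Their symbols already name the family described above and the search followed its known form, so the matches are a description and not a test. In hg38, the 120 bases after the stop codon were searched for 16 bases with a stem of 6 base pairs (G-T pairs allowed) that starts with GG and a loop of 4 bases that starts with TT. A match was found in 56 of 59 genes with an entry in GENCODE 44, between 23 and 63 bases after the stop codon (median 36). Among 3923 other protein-coding genes on chromosomes 1, 6 and 12, 13 (0.331%) had such a match. HIST1H3E, HIST1H2BI and HIST1H4L had none, which says only that these letters are not in this window. The 56 genes used 7 sequences, of which the 4 that more than 1 gene carries are shown with both arms of the stem in capitals and the loop in lower case, 5′ to 3′ on the gene's strand.
HIST1H1B and 33 other genes of classes H1, H2A, H2B and H3: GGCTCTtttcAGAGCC
HIST1H4B and 7 other H4 genes: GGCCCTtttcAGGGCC
HIST1H2BK and 6 other genes, among them HIST1H2BC, HIST1H2BJ and HIST1H3G: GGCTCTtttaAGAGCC
HIST1H4I, HIST1H4K, HIST2H4A and HIST2H4B: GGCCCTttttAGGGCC

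All 12 H4 genes with a match used one of the forms with the stem arms GGCCCT and AGGGCC, which no gene of another class carried. HIST1H2AG, HIST2H2AC and HIST1H2AK had a form of their own. The stem-loop of HIST1H1B lies on chromosome 6 from 27866797 to 27866812, minus strand, and that of HIST1H4B from 26026901 to 26026916, minus strand. The span that the deposited table gives for a gene enclosed the stem-loop in 29 of the 56 genes, ended before it in 25 and ended inside it in 2 (HIST2H2AB and HIST1H1E), so the counted part of the mRNA differs between genes.

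Promoters show how the classes are built for transcription. RefSeq windows (GRCh38.p14) from 250 bases before to 50 bases after the start were matched to 56 of the 61 genes, and letters were searched on both strands. TATAAA, the TATA box, was in 37 of 56 windows (66.1%) against 11.5% of all 35116 windows, and CCAAT in 47 (83.9%) against 34.6%. CCAAT was in all windows of the H1, H2A, H2B and H3 genes but in 2 of 11 H4 windows. ATTTGCAT, the octamer that POU2F1 binds, was in 13 of 17 H2B and 10 of 15 H2A windows and in none of the other classes, against 1.77% of all windows. Windows of back-to-back H2A and H2B genes overlap, so the same site can be counted for both genes. HIST1H2AG, for example, has no octamer in the 150 bases before its start and shares the window part of HIST1H2BJ that holds it. AAACACA, known from H1 promoters, was in 4 of 4 H1 windows and 1 H2A window, against 5.64%. The 150 bases before the start are printed for 1 gene each of H1, H2B, H3 and H4, with these letters in capitals on either strand.
HIST1H1B, minus strand of chr6:27867589-27867738: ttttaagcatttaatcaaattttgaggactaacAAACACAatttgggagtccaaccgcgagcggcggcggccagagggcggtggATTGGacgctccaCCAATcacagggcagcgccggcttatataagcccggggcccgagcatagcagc
HIST1H2BJ, minus strand of chr6:27132796-27132945: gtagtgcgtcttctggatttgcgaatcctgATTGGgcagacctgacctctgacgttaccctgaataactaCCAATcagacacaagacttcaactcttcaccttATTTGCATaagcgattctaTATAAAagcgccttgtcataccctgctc
HIST1H3B, minus strand of chr6:26032100-26032249: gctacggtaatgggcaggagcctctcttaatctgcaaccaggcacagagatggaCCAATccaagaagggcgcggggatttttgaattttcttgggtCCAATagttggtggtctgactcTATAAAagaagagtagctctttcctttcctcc
HIST1H4B, minus strand of chr6:26027284-26027433: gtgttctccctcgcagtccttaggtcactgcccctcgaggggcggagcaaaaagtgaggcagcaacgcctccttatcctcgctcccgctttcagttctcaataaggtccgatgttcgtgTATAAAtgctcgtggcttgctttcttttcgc

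HIST1H2BJ shares this region with the H2A gene HIST1H2AG on the other strand, and the capitals ATTGG are CCAAT read from that strand. These matches are a description of letters and not of bound factors.

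Libraries held between 30667735 and 41052203 read pairs counted on genes. The histone genes took 1.45, 1.51 and 1.35% of these read pairs in DMSO, 1.22, 0.864 and 1.03% in FK, 0.507, 0.566 and 0.608% in Met and 0.476, 0.507 and 0.641% in Met+FK. Within a treatment the genes moved together. FK replicate 1 was the highest FK library for 60 of 61 genes and FK replicate 2 the lowest for 59, DMSO replicate 3 was the lowest DMSO library for 54, and replicate 3 was the highest of Met for 50 and of Met+FK for 56. Of 9 markers of pancreatic ductal epithelium, 5 had a mean of at least 100 normalized counts, led by KRT18, while EPCAM had a mean of 8.93, and all 4 mesenchymal markers passed 100. Markers of acinar and islet cells had means under 10 in 5 of 5 cases, and the T cell marker CD3E did not exceed 1.02 normalized counts in any library. Of the 4 leukocyte markers, 2 had means under 10, while PTPRC and CD68 had means of 196 and 829.

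Almost every histone gene was lower in Met than in DMSO. Of the 61 genes, 59 were called lower and 0 higher, against 10.2% of the 15376 genes tested that were called lower and 12.8% higher. A gene was called when the adjusted p-value from limma-trend on log2(normalized count + 1) was under 0.05 and the fold change over 1.5. The median log2 fold change of the 61 genes was −1.50, which is 0.352 of the DMSO level, while that of all genes tested was 0.012. In 60 of 61 genes all Met libraries lay below all DMSO libraries, which held for 29.4% of the genes tested. All 4 H1, 16 of 16 H2A, 16 of 17 H2B, 11 of 11 H3 and 12 of 13 H4 genes were called lower, with class medians between −1.36 for H4 and −1.69 for H1. The test on recovered counts in edgeR also called 59 genes lower and 0 higher, and DESeq2 did the same.

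**Figure D1:**
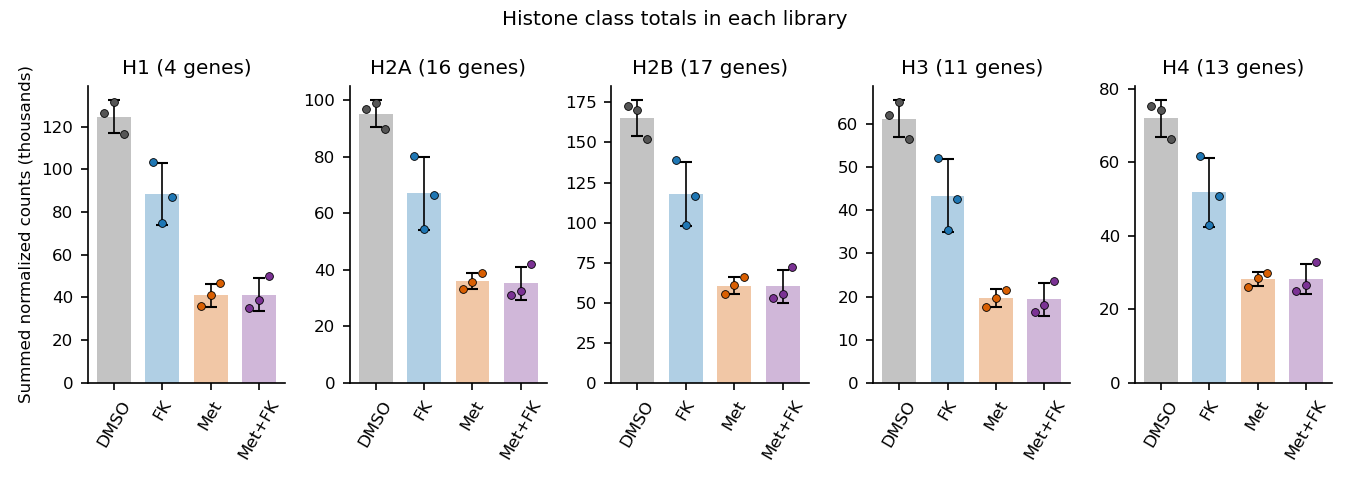
Summed normalized counts (divided by 1000, linear axis from 0) of the histone genes of each class in the 12 libraries. Points are libraries, bars are means and error bars are SD (n = 3). In each class the 3 Met and the 3 Met+FK libraries lie below the 3 FK libraries, which lie below the 3 DMSO libraries.

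Linker histones fold the nucleosome fibre, and HIST1H1C (H1-2) and HIST1H1B (H1-5) had the highest mean normalized counts of all 61 genes, without regard to length. HIST1H1B, on chromosome 6 from 27866849 to 27867529, minus strand, had 44696, 46287 and 41586 normalized counts in DMSO, 36035, 25554 and 30201 in FK, 9228, 11072 and 12473 in Met and 7878, 9307 and 12283 in Met+FK. Its Met libraries lay far below both DMSO and FK, and the Met and Met+FK libraries overlapped. The log2 fold change of Met against DMSO was −2.03 (SE 0.15, adjusted p = 1.15e-07). HIST1H1D (H1-3) fell by a similar log2 fold change of −2.13 (SE 0.16), with 12711, 13896 and 12133 normalized counts in DMSO and 2343, 3174 and 3427 in Met. HIST1H1C, on chromosome 6 from 26055787 to 26056428, minus strand, went from 46879, 48217 and 43063 in DMSO to 16073, 17732 and 20306 in Met, a log2 fold change of −1.36 (SE 0.13, adjusted p = 9.18e-07). HIST1H1E (H1-4) changed by −1.24 (SE 0.13). HIST1H1B and HIST1H1D thus ended at lower shares of their DMSO level than HIST1H1C and HIST1H1E, and the difference between genes was not tested. HIST1H1A, the remaining H1 gene of somatic cells in this cluster, had a mean of 2.80 normalized counts and was not tested.

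H2A and H2B form the dimers at the outside of the nucleosome. HIST1H2AG and HIST2H2AC, which with HIST1H2AC had the highest mean counts of the H2A genes, changed by −1.60 (SE 0.13, adjusted p = 3.17e-07) and −1.29 (SE 0.13, adjusted p = 1.68e-06) in Met against DMSO on the log2 scale. The smallest changes among the called genes were those of HIST2H2AB, HIST3H2A and HIST1H2AC. HIST1H2AC went from 11602, 12497 and 10903 normalized counts in DMSO to 6218, 6289 and 6652 in Met, a log2 fold change of −0.87 (SE 0.12, adjusted p = 4.93e-05). That of HIST3H2A was −0.86 (SE 0.11), and that of HIST2H2AB −0.83 (SE 0.11), a gene that overlaps BOLA1 on the other strand. These genes were still separated from DMSO in every library.

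Among the H2B genes, HIST2H2BE, HIST1H2BC and HIST1H2BK had the highest mean counts, with log2 fold changes of −1.47 (SE 0.13), −1.18 (SE 0.11) and −1.31 (SE 0.13) in Met against DMSO. HIST1H2BM, on chromosome 6 from 27815044 to 27815424, plus strand, stood at 4280.4, 4079 and 3742 normalized counts in DMSO, 2768, 1845 and 2396 in FK, 796, 848 and 848 in Met and 552, 609.5 and 762 in Met+FK. It was one of the genes with the largest decreases in each comparison against DMSO or FK, with no overlap between any of the 4 treatments. Its log2 fold change in Met was −2.28 (SE 0.14, adjusted p = 1.49e-08).

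HIST1H2BE was the exception. Its normalized counts were 212, 173 and 198 in DMSO, 207, 188 and 189 in FK, 208, 212 and 165 in Met and 199, 212 and 221 in Met+FK. All treatments overlapped, and no comparison passed the test, with an adjusted p of 0.992 for Met and 0.452 for Met+FK against DMSO. The table gives this gene a span of 12597 bases, chromosome 6 from 26172059 to 26184655, plus strand, which overlaps AL353759.1 on the minus strand, so reads of that gene could have been counted here if the counting ignored strand, which is not stated in the sources used here. HIST1H2BD overlaps the same gene and changed by −1.17 (SE 0.11, adjusted p = 1.27e-06). HIST2H4B, the other gene not called in Met, had 13.8, 20.7 and 9.21 normalized counts in DMSO and 6.27, 6.61 and 9.13 in Met.

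**Figure D2:**
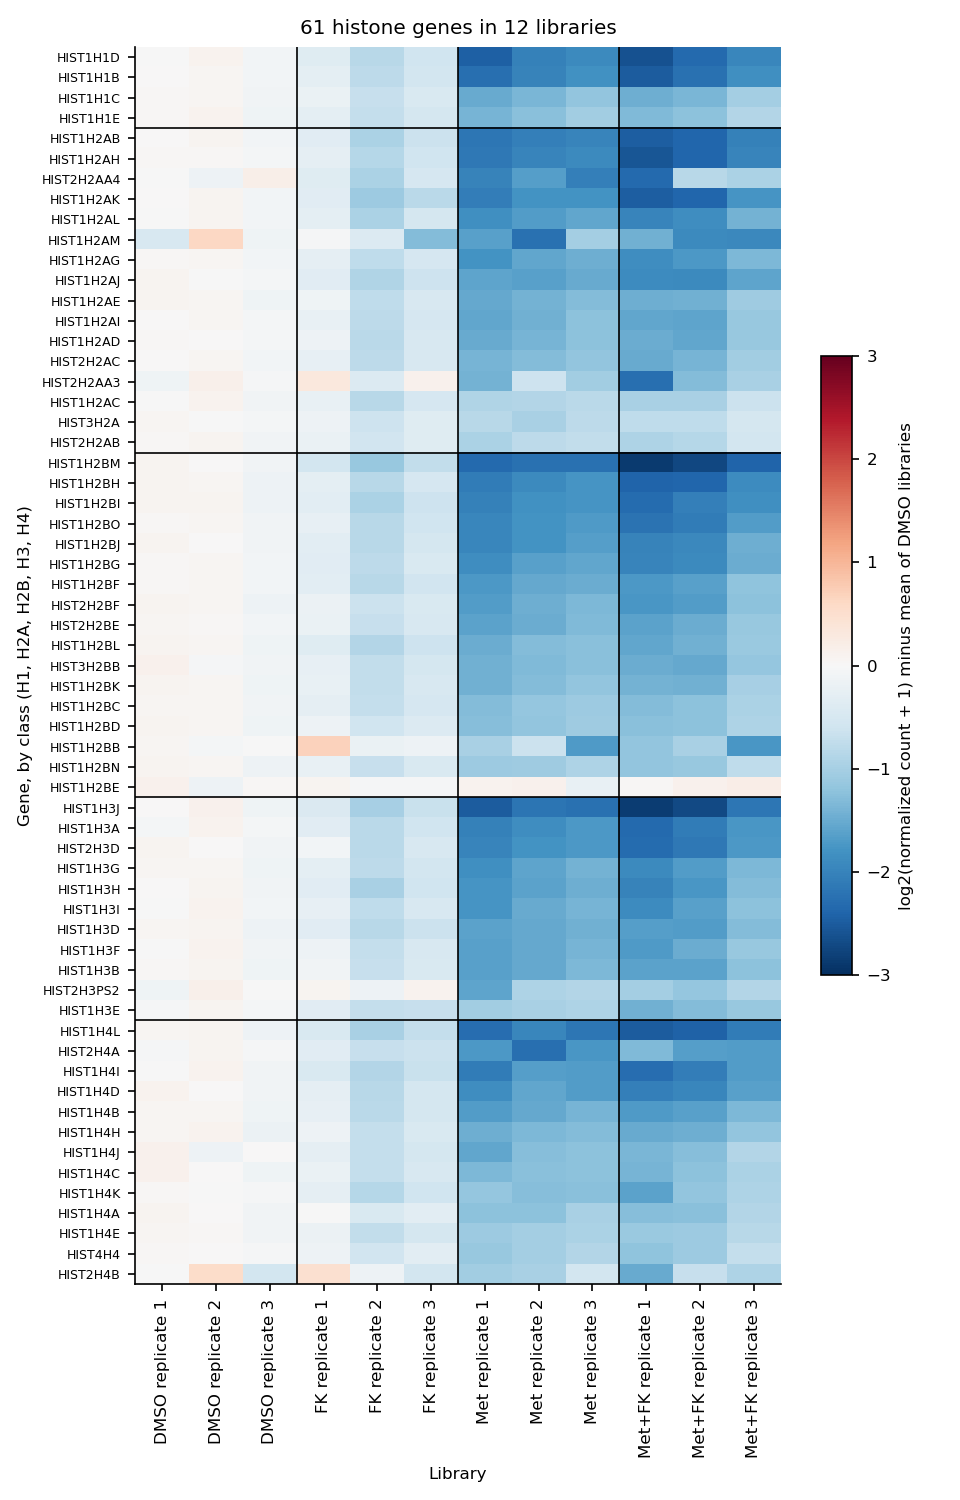
Heat map of log2(normalized count + 1) of the 61 genes in the 12 libraries, minus the mean of the DMSO libraries of that gene, ordered by class and by the change in Met. Blue is lower than DMSO, and the row of HIST1H2BE stays near white in every library, while some rows with means under 100 vary within a treatment.

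H3 and H4 form the tetramer at the core of the nucleosome. HIST1H3B, the H3 gene with the highest mean count, went from 20012, 20766 and 17970 normalized counts in DMSO to 6329.6, 6756 and 7639.6 in Met, a log2 fold change of −1.50 (SE 0.13, adjusted p = 5.56e-07). HIST1H3I and HIST1H3H followed with −1.55 (SE 0.15) and −1.61 (SE 0.16). HIST1H3J had the largest decrease of all 61 genes in Met, from 7138, 7664 and 6441 to 1249, 1540.2 and 1508 normalized counts, a log2 fold change of −2.31 (SE 0.16, adjusted p = 7.38e-08). Its span encloses part of HIST1H2AM on the same strand, whose mean was 12.5, so the values of both genes are uncertain.

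Of the H4 genes, HIST1H4B, HIST1H4E and HIST1H4C had the highest mean counts, and their log2 fold changes in Met against DMSO were −1.54 (SE 0.13), −1.01 (SE 0.12) and −1.28 (SE 0.12). HIST1H4L, on chromosome 6 from 27873199 to 27873510, minus strand, went from 6802, 6959.9 and 5871 normalized counts in DMSO to 1338, 1684 and 1463 in Met, a log2 fold change of −2.13 (SE 0.13, adjusted p = 2.21e-08). HIST4H4, which lies outside the clusters, changed by −1.01 (SE 0.12), close to the cluster gene HIST1H4E. The H4 genes named here are known to encode the same protein.

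FK866 alone moved the histone genes in the same direction by less. In FK against DMSO, 13 of 61 genes were called lower and 0 higher, against 0.754% of genes tested called lower and 2.73% called higher. The adjusted p-value alone was under 0.05 for 50 genes, all lower, against 9.84% of the genes tested. The median log2 fold change of the 61 genes was −0.51, or 0.700 of the DMSO level, against −0.016 for all genes tested. The FK libraries lay below all DMSO libraries in 51 genes, against 21.6% of the genes tested. Class medians lay between −0.50 for H2B and −0.54 for H3, so most genes stood close to the limit of a 1.5-fold change.

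The 13 genes were HIST1H1D, 4 H2A genes (HIST1H2AB, HIST1H2AJ, HIST1H2AK and HIST1H2AL), 3 H2B genes (HIST1H2BI, HIST1H2BL and HIST1H2BM), 3 H3 genes (HIST1H3D, HIST1H3H and HIST1H3J) and 2 H4 genes (HIST1H4I and HIST1H4L). HIST1H2BM had the largest change and the smallest adjusted p, −0.81 (SE 0.14, adjusted p = 0.00506). HIST1H4L followed in adjusted p with 4755, 3341 and 3995 normalized counts in FK, a log2 fold change of −0.71 (SE 0.13, adjusted p = 0.01). HIST1H2AJ had −0.61 (SE 0.12, adjusted p = 0.0124), HIST1H2BL −0.62 (SE 0.13, adjusted p = 0.0155) and HIST1H2AB −0.64 (SE 0.14, adjusted p = 0.0162). Values of HIST1H2AK (−0.74) and HIST1H2AL (−0.59) are uncertain, since HIST1H2BN spans both genes, on the opposite strand of the first and the same strand of the second.

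The genes with the highest mean counts in H1, H2B, H3 and H4 were lower in FK but under the fold limit. HIST1H1C had 39878, 28685 and 33420 normalized counts in FK, below its DMSO libraries, and a log2 fold change of −0.45 (SE 0.13, adjusted p = 0.0304). HIST1H1B had −0.54 (SE 0.15, adjusted p = 0.0292), HIST2H2BE −0.46 (SE 0.13, adjusted p = 0.0293), HIST1H3B −0.41 (SE 0.13, adjusted p = 0.0425) and HIST1H4B −0.53 (SE 0.13, adjusted p = 0.0214). In each of these genes FK replicate 1 stood closest to DMSO.

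The number of calls in FK rested on single libraries. Without DMSO replicate 1 or without FK replicate 2, 1 gene was called lower, HIST1H2BM, against 0.0650% and 0.0845% of the genes tested, and without FK replicate 1, 45 were, against 1.29%. After removal of the dependence on transcript GC content and length from each library, 1 gene was called, again HIST1H2BM, against 0.235%, and the median of the 59 genes with a known GC content was −0.31. The histone transcripts had a median GC content of 58.2% (47.9 to 64.7%) against 48.5% for all genes tested, and over all genes, a GC content higher by 10 percentage points went with a log2 value, relative to the gene's mean over the 12 libraries, higher by 0.196, 0.0429 and 0.18 in the DMSO libraries, with slopes of 0.0027, −0.245 and −0.0247 in the FK libraries and −0.0849, −0.139 and 0.0801 in the Met libraries. In the Met+FK libraries the slopes were −0.0232, −0.0481 and 0.0631. The part of GC content in these results was not tested further. With the replicate block, that is the replicate number as a term in the fit, 13 genes were called lower, against 1.06%. Between libraries of the same number, the summed histone counts of FK were 0.819, 0.565 and 0.756 of those of DMSO, with 56, 60 and 59 of 61 genes lower.

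**Figure D3:**
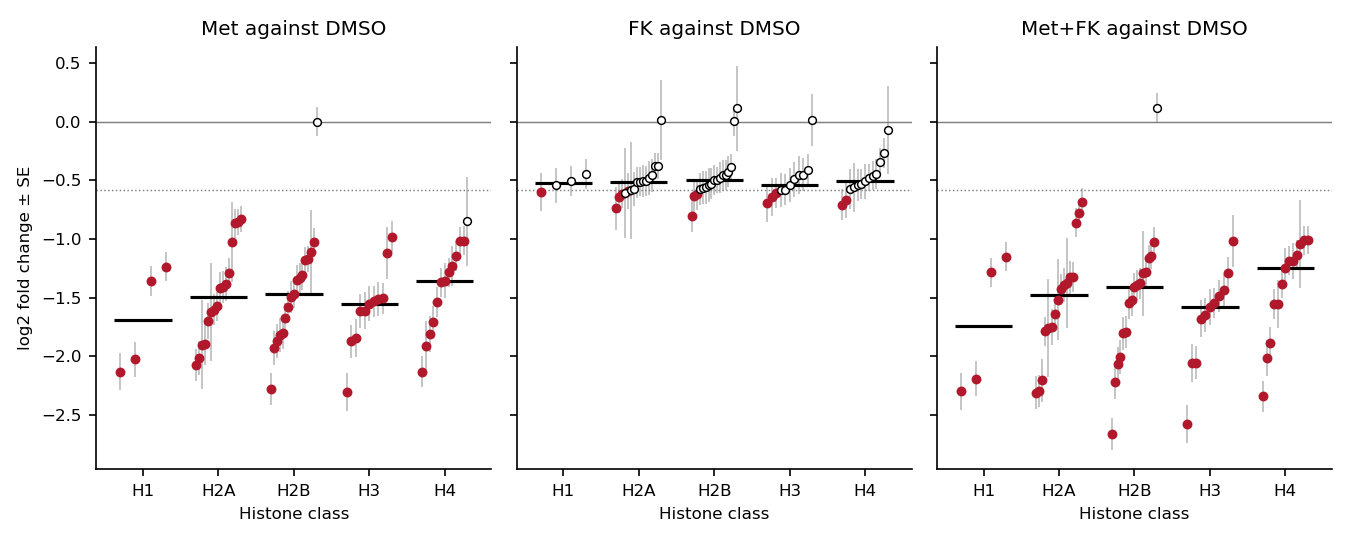
Log2 fold change (points) with its standard error (bars) of each gene in Met, FK and Met+FK against DMSO, by class. Filled points were called, open points were not, black lines are class medians and the dotted line is a 1.5-fold decrease. In FK most points sit beside the dotted line, while in Met and Met+FK all but 2 and 1 of the 61 genes were called.

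With both drugs, 60 of 61 genes were called lower than in DMSO and 0 higher, against 11.3% and 13.7% of the genes tested. The exception was HIST1H2BE. The median log2 fold change was −1.49, or 0.357 of the DMSO level, and 60 genes did not overlap, against 30.4% of the genes tested. The largest decreases were those of HIST1H2BM (−2.66, SE 0.14, adjusted p = 1.89e-09), HIST1H3J (−2.58, SE 0.16, adjusted p = 1.42e-08) and HIST1H4L (−2.34, SE 0.13, adjusted p = 5.21e-09). The smallest among called genes were those of HIST3H2A (−0.68, SE 0.11), HIST2H2AB (−0.78, SE 0.11) and HIST1H2AC (−0.86, SE 0.12). The comparison shares its DMSO libraries with the other comparisons against DMSO.

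Metformin was also compared in cells that received FK866, from libraries that Met and DMSO do not include. In Met+FK against FK, 54 of 61 genes were called lower and 0 higher, against 9.29% and 9.27% of the genes tested. The adjusted p alone was under 0.05 for 59 genes, all lower, against 21.7% of the genes tested. In 56 genes the libraries did not overlap, against 26.0% of the genes tested. The median log2 fold change was −0.995, or 0.502 of the FK level. HIST1H3J (−1.88, SE 0.16, adjusted p = 4.57e-07), HIST1H2BM (−1.86, SE 0.14, adjusted p = 8.53e-08) and HIST1H2AH (−1.73, SE 0.14, adjusted p = 3.08e-07) had the largest decreases. HIST1H1E (−0.64, SE 0.13), HIST4H4 (−0.66, SE 0.12) and HIST1H2BC (−0.66, SE 0.11) had the smallest among called genes, and HIST1H4E had −0.53 (SE 0.12), under the fold limit with an adjusted p of 0.00194. HIST1H2BE was the only gene whose sign differed between Met against DMSO (−0.0018) and Met+FK against FK (0.11), and neither passed the test. Over 54 genes whose mean was 100 normalized counts or more, Pearson's r between these fold changes was 0.969 and Spearman's rho 0.975, which describes genes measured in the same libraries and not independent points.

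Adding FK866 to metformin gave no called change in the histone genes. In Met+FK against Met, limma-trend called 0 of 61 genes lower and 0 higher, against 0.00650% and 0.0520% of the genes tested, and edgeR and DESeq2 also called 0. An unadjusted p under 0.05 was reached by 2 of the 61 genes, HIST1H2BM (−0.39, SE 0.14) and HIST1H3E (−0.31, SE 0.13), against 6.84% of the genes tested. They were also the 2 genes whose Met+FK libraries all lay below the Met libraries, against 5.56% of the genes tested. In HIST3H2A and HIST2H4A all Met+FK libraries lay above the Met libraries, against 7.88% of the genes tested, and in the other 57 genes the libraries overlapped. The median log2 fold change was −0.03, and 38 of the 61 values were negative. Summed over all 61 genes, Met had 185560 ± 17363 normalized counts (SD, n = 3) and Met+FK 184370 ± 31705 (SD, n = 3), a ratio of 0.994. Between libraries of the same number this ratio was 0.959, 0.922 and 1.09, with 47, 50 and 13 genes lower. A p that misses the threshold does not show that both treatments were alike.

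The effect of FK866 was therefore compared between cells without and with metformin. The interaction, the log2 fold change of Met+FK against Met minus that of FK against DMSO, had a median of 0.46 over the 61 genes against 0.016 over all genes tested, and it was positive in 58 genes. Its size depended on the GC and length trend. With that trend removed, the median in FK against DMSO was −0.31 instead of −0.51, and in Met+FK against Met −0.04 instead of −0.03. The part of GC content in the interaction was not tested. All 54 genes whose mean was 100 or more had a positive value, between 0.11 for HIST1H2BE and 0.68 for HIST1H4J. In limma-trend, 0 genes passed an adjusted p of 0.05, against 0.0585% of the genes tested (0.00650% with a positive value), while 40 had an unadjusted p under 0.05, against 30.5% of the genes tested. edgeR and DESeq2 also passed 0 of the 61 genes, against 10 and 482 of the 15376 genes tested (1 and 164 with a positive value). The smallest adjusted p of limma-trend was 0.11.

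With the replicate block, 31 histone genes passed, all with a positive interaction, against 15.5% of the genes tested that passed with a positive value. Removing the trend on GC content and length together with the replicate block left 1 gene, HIST2H2BE, against 4.81%. This H2B gene had 21290, 20905 and 19369 normalized counts in DMSO, 17850, 12636 and 14757 in FK, 6781, 7365 and 8188 in Met and 6744, 7256 and 9333 in Met+FK, so its FK libraries lay below DMSO while Met and Met+FK overlapped. Without FK replicate 1 and without the block, 33 genes passed, against 6.37%. The test of this difference thus changed its outcome with 1 library and with the pairing, and the pairing itself was read from the values alone.

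**Figure D4:**
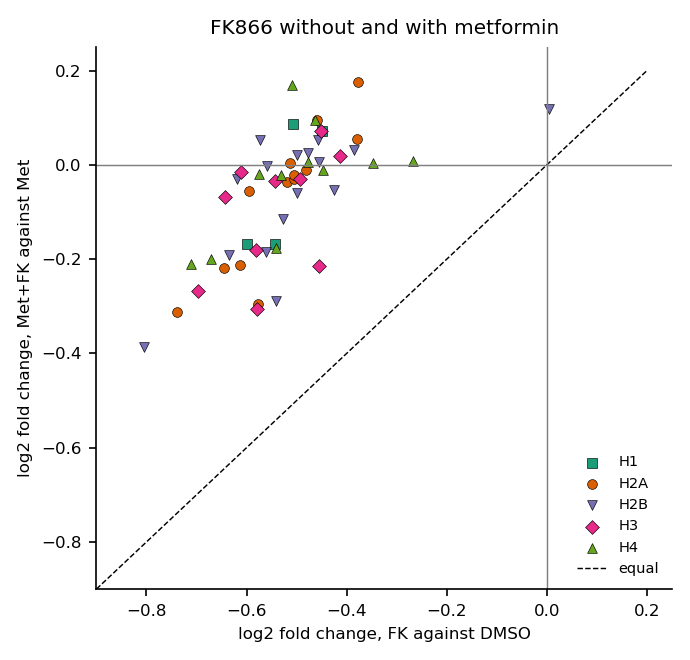
Log2 fold change of FK against DMSO (horizontal axis) and of Met+FK against Met (vertical axis) for the 54 genes whose mean was 100 or more, by class, with a dashed line of equal change. The comparisons share no library, and all 54 points lie above the line, most of them near 0 on the vertical axis.

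The counts above are not divided by length. Levels per length were compared between the 37 genes whose span in the table is under 1000 bases. In DMSO, HIST1H1C had the highest level, 71734 ± 4165 normalized counts per 1000 bases (SD, n = 3), followed by HIST1H1B with 64889 ± 3511 and HIST1H2BK with 50630 ± 3982. HIST1H3B with 38702 ± 2859 and HIST1H4B with 31168 ± 2481 were the highest of their classes. HIST2H2AC, HIST1H2BO and HIST1H1E, between 28574 and 29709, did not differ beyond their spread. At the other end stood HIST1H2AM (57.6), HIST2H2AA3 (43.8), HIST1H2BB (40.5) and HIST2H2AA4 (35.4). HIST1H2AM overlaps HIST1H3J on the same strand. HIST2H2AA3 and HIST2H2AA4 have nearly the same promoter sequence and had no GENCODE 44 coding sequence to search for shared stretches. Reads of these genes may be split or lost, so their low places are uncertain. In Met, HIST1H1C was still the highest with 28095, while HIST1H2BK with 20495 stood above HIST1H1B with 16042.

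Many H2A and H2B genes are arranged in pairs that start back to back. Starts taken from the spans in the table gave 11 pairs of genes on opposite strands, at most 356 bases apart. Both genes of each pair had negative log2 fold changes in Met, FK and Met+FK against DMSO. HIST1H2BO was counted with both HIST1H2AM (313 bases) and HIST1H3J (356 bases), so the pairs are not all distinct. The span of HIST1H3J has 2725 bases, but its canonical GENCODE 44 transcript is 1 exon of 512 bases. Its stem-loop lies beyond the other end of that span, so the 356 bases do not separate transcript starts. HIST1H2BJ and HIST1H2AG, whose shared upstream region is printed above, start 291 bases apart and changed by −1.80 and −1.60 in Met. HIST1H2BK and HIST1H2AH, with 330 bases between them, changed by −1.31 and −2.02, and HIST3H2A and HIST3H2BB, with 233 bases, by −0.86 and −1.33. Partners of 1 pair thus did not always change by the same amount.

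Sequence features that the symbols did not use are set beside the changes as medians. In Met, the median log2 fold change was −1.52 in the 34 genes with the stem-loop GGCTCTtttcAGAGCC, −1.32 in the 8 with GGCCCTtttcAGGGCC, −1.31 in the 7 with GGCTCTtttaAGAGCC and −1.52 in the 4 with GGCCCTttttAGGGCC. The 29 genes whose span encloses the stem-loop had a median of −1.41, the 25 whose span ends before it −1.62 and the 2 whose span ends inside it −1.03. Genes with TATAAA in the promoter window had a median of −1.50 and those without −1.49. The medians with and without CCAAT were −1.51 and −1.36, and 9 of the 56 windows, all of H4 genes, lacked it. Those with and without ATTTGCAT were −1.58 and −1.41, where a site in overlapping windows counted for both genes. These medians describe genes of the same libraries and were not tested.

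The 7 genes with a mean under 100 normalized counts had a median of −1.12 in Met, and 6 of them were called lower, against 10.2% of the genes tested. Near-identical copies can split or lose reads. Of the 59 genes with coding sequence in GENCODE 44, 47 share no stretch of 100 coding bases with another gene of the family. Of these 47, 47 were called lower in Met, against 10.2% of the genes tested, with a median of −1.54. Of the 12 that share such stretches, 10 were called lower, against the same share, with a median of −1.38. HIST2H4A and HIST2H4B share all of their stretches, and so do HIST1H4J and HIST1H4K. HIST2H4A had a mean of 38.2 normalized counts and HIST1H4J and HIST1H4K 280 and 177.

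Some replication-dependent histone genes are known to give polyadenylated mRNA as well, and 10 such genes, among them HIST1H1C, HIST1H2AC, HIST1H2BK and HIST4H4, were described apart. All 10 and 49 of the other 51 genes were called lower in Met, against 10.2% of the genes tested, with medians of −1.24 and −1.54. In FK, 0 of the 10 and 13 of the 51 were called lower, against 0.754% of the genes tested, with medians of −0.47 and −0.54. The adjusted p alone was under 0.05 and the change lower in 9 of the 10 and 41 of the 51, against 9.84%. In FK the 2 sets thus differed mainly in which genes passed the fold limit, and the difference was not tested. Whether the counted reads came from polyadenylated or from stem-loop mRNA cannot be seen in counts per gene.

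Genes that work with these histones were taken from lists drawn up from general knowledge. Of 21 core genes of S phase, 20 were called lower in Met and 0 higher, against 10.2% and 12.8% of the genes tested, with a median log2 fold change of −1.17. RRM2, a subunit of ribonucleotide reductase, had 30529, 30929 and 31080 normalized counts in DMSO and 9280.1, 9659 and 9264 in Met (−1.71, SE 0.06, adjusted p = 4.22e-11). TYMS, which makes thymidylate, changed by −1.45 (SE 0.07), the helicase subunit MCM4 by −1.17 (SE 0.07) and the sliding clamp PCNA by −1.25 (SE 0.08). In FK, 0 of the 21 genes were called, against 0.754% of the genes tested called lower and 2.73% higher. By the adjusted p alone, 6 were lower, against 9.84% of the genes tested, and 1 was higher, against 1738 of 15376. The median was −0.16. Of the histone genes, 13 of 61 were called, and their median was −0.51. In Met+FK all 21 were called lower than in DMSO, against 11.3% of the genes tested, with a median of −1.39. Against Met alone the median was −0.22 with 0 called, all 21 values were negative and 11 had an unadjusted p under 0.05 (6.84% of the genes tested had), while the histone genes had a median of −0.03. The median interaction was −0.03 in the S phase genes and 0.46 in the histone genes. The difference between lists, and the part of GC content in it, was not tested.

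Of 19 factors that transcribe or process histone mRNA, 3 were called lower and 1 higher in Met, against 10.2% and 12.8% of the genes tested, with a median of −0.08. SLBP, which binds the stem-loop, went from 3935, 3693 and 3871 normalized counts in DMSO to 2663, 2509 and 2336 in Met, a log2 fold change of −0.62 (SE 0.09, adjusted p = 4.08e-05). SRRT, which acts with the cap-binding complex, changed by −1.15 (SE 0.09) and the helicase DHX9 by −0.69 (SE 0.07). POU2F1, the octamer-binding factor, was higher by 0.61 (SE 0.11). NPAT, the coactivator of histone gene transcription, did not pass the test (0.04, SE 0.17, adjusted p = 0.871). In FK, 0 of the 19 were called, against 0.754% of the genes tested called lower and 2.73% higher, with a median of 0.10.

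Of 15 histone chaperones and assembly factors, 4 were called lower in Met and 0 higher, against 10.2% and 12.8% of the genes tested, with a median of −0.37. ASF1B changed by −1.44 (SE 0.11, adjusted p = 1.52e-07), the subunits of the chromatin assembly factor CHAF1A and CHAF1B by −1.02 (SE 0.09) and −1.02 (SE 0.09), and NASP by −0.80 (SE 0.08). These factors deliver new H3 and H4 to replicated DNA or hold them in reserve. Of 11 replication-independent histone variants tested, 2 were called lower and 0 higher, with a median of −0.42, against the same shares. H2AFX, a variant that is phosphorylated at DNA breaks and whose mRNA can also end in a stem-loop, changed by −1.66 (SE 0.11, adjusted p = 5.26e-08), from 12469, 11458 and 10823 to 3629.9, 3433 and 3959.8 normalized counts, and CENPA, the centromeric H3, by −0.69 (SE 0.08). In FK, 0 genes of both lists were called, against 0.754% of the genes tested called lower and 2.73% higher. Of 13 other short or non-polyadenylated RNAs listed, 2 were tested. Their log2 fold changes in Met were −0.53 (SE 0.14, adjusted p = 0.0044) for RMRP and 0.09 (SE 0.10, adjusted p = 0.471) for TERC, and neither was called.

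**Figure D5:**
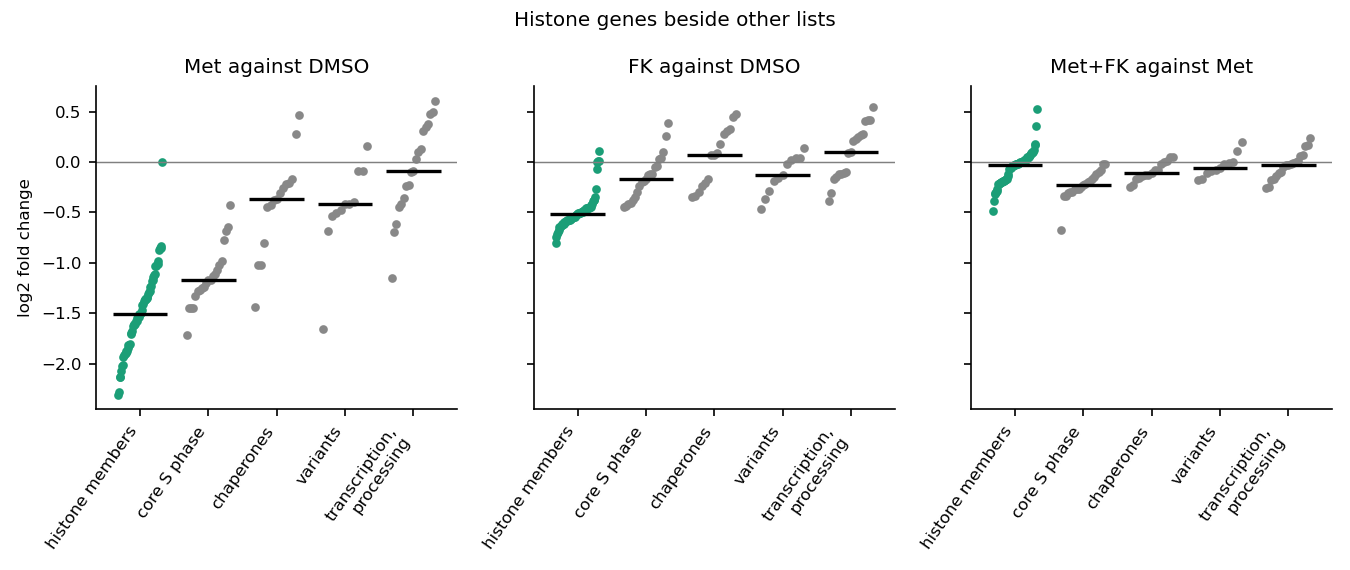
Log2 fold changes of the 61 histone genes and of the genes of 4 other lists in Met against DMSO, FK against DMSO and Met+FK against Met. Points are genes and black lines are medians. In Met the medians of the histone genes (−1.50) and the S phase genes (−1.17) lie lowest, and in FK the histone genes (−0.51) lie below the S phase genes (−0.16).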

How the data were processed

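Total RNA of 12 KP4 samples was depleted of ribosomal RNA and sequenced on a NovaSeq. The authors trimmed reads with cutadapt, aligned with STAR against hg38, used featureCounts for read pairs per gene where both ends had mapped, and divided by DESeq2 size factors. The annotation and strand setting are not given in the sources used here. The deposited values are thus a signal in normalized counts, from which whole counts were recovered for 100% of values within 0.01 reads.

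Here log2(normalized count + 1) of 15376 genes (mean of at least 10) was tested in limma-trend (limma 3.58.1, R 4.3.3) with 4 group means over 12 libraries and Benjamini-Hochberg adjustment. Fold changes are on this scale and understate changes of low genes. The interaction had no fold limit. edgeR 4.0.16 on the recovered counts called 1382 genes lower and 2142 higher in Met against DMSO, 90 and 526 in FK against DMSO, 1611 and 2270 in Met+FK against DMSO, 1 and 8 in Met+FK against Met, and 1414 and 1476 in Met+FK against FK. DESeq2 1.42.0, another scaling, other pseudocounts (0.1 and 10), no minimum, removal of a trend on GC content and length (loess, GENCODE 44), left-out libraries and the replicate number as a block were alternatives.

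Groups and replicate numbers came from the labels. Deviations from the group means correlated between libraries of the same number by 0.252, 0.42 and 0.219 for FK and DMSO and by 0.171, 0.2 and 0.226 for Met+FK and Met, so these numbers were read as pairs from the values alone. In the other comparisons at least 1 library correlated better with another number. The 61 genes and all lists were chosen with earlier results of these data known.

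Named were the 3 genes with the highest mean per class, the 3 largest and 3 smallest called changes and the genes with the 5 smallest adjusted p-values in FK, those whose direction differed between both metformin comparisons, and up to 4 called genes per other list. Other genes named with values were chosen after their values were seen.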

Additional observations from a re-analysis of the deposited data

How the results depend on the processing

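The number of histone genes called lower in FK against DMSO was 13 in limma-trend over 12 libraries, against 0.754% of the genes tested. It was 1 with the GC and length trend removed, against 0.235%, and 1 with the replicate block added to that. By the adjusted p alone it was 50, against 9.84%, and in edgeR 8, against 90 of 15376 genes. From only the 6 libraries compared it was 5. With 1 library left out it was 1 to 45, against 0.0650% without DMSO replicate 1 (1 gene) and 1.29% without FK replicate 1 (45 genes). For the interaction, 0 genes passed without and 31 with the replicate block, against 0.00650% and 15.5% of the genes tested that passed with a positive value. With the block after removal of the GC and length trend 1 gene passed, against 4.81%. With 1 library left out 0 to 33 passed, against 6.37% for the 33 without FK replicate 1. The block changed no other count by more than 1.5 times. The median log2 fold change in Met against DMSO, −1.50, was −1.32 with the GC and length trend removed, with or without the block, over 59 genes. Scaling to the same total moved the median of all genes in Met against DMSO to 0.134 from 0.012. The causes were not tested.

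With 1 library left out, 58 to 60 genes were called lower in Met against DMSO, 59 to 60 in Met+FK against DMSO, 47 to 54 in Met+FK against FK and 0 in Met+FK against Met. Over all 12 libraries, the genes tested were called lower in 10.2%, 11.3%, 9.29% and 0.00650% of cases in these comparisons, in this order. Their shares with 1 library left out are not given here. In Met+FK against Met, the median log2 fold change, −0.03, lay between −0.16 and 0.05 and so took either sign, while no called value changed direction under these alternatives. In all, 370 values of counts and medians stayed within 1.5 times or 1 SD while 13 moved. Single genes were followed only where the rules above named a histone gene. Among these named genes, summed over the alternatives, 64 calls in FK were lost over 10 genes. In the comparisons of Met+FK with DMSO and with FK they lost 10, and 57 were gained, 41 of them in the interaction. With 3 libraries a group, an exact permutation test of 1 value cannot go below 0.1. Reads of the 12 genes with identical stretches and of genes that overlap cannot be assigned with certainty. HIST2H2AA3 and HIST2H2AA4 were not searched for such stretches, and their reads may be shared too.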
